A study of Mus musculus with 16 samples.

Results

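The comparison concerns mature medullary thymic epithelial cells (mTEC) of mice that lost the splicing regulator Rbfox2 in thymic epithelium (Rbfox2 tKO), set against control mice of the same line. Its members were the mature mTEC libraries whose labels give the Rbfox2 line, 4 of the 16 RNA-seq libraries, with 2 tKO mice and 2 control mice. The tKO mice were Rbfox2 lox/lox, Foxn1 wildtype/cre, and the control mice were Rbfox2 lox/lox, Foxn1 wildtype/wildtype, so that all 4 animals carried the floxed alleles and only the tKO mice carried Cre. Cre was driven from the Foxn1 locus, which is active throughout thymic epithelium, and the presence of Cre and the loss of Rbfox2 cannot be told apart within this line. In both groups replicate 1 was a male and replicate 2 a female, mice were aged 4 to 6 weeks by the labels, which name the strain C57BL/6, and the methods describe a mixed background of 129S2/Sv and C57BL/6J. Mature mTEC were the CD45-, EpCAM+, Ly51-, UEA+ cells with high MHC class II. Each library came from the cells of 1 mouse. The p-values of the main fit of mature mTEC rest on a spread estimated from 8 mature libraries, these 4 and those of a line with Rbfox1 deleted, and moderated across genes. That estimate had 15.1 prior and 4 residual degrees of freedom, so it is not the spread between these few mice alone. The p-values for immature mTEC and for differences between the populations come from other fits. Of the tested features, 17090 were Ensembl genes among 18021 in all.

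RBFOX proteins bind a short RNA motif in introns and direct the inclusion or skipping of nearby exons, in a position-dependent way, in brain, muscle and epithelial cells. Mature mTEC display self-antigens of many tissues to developing T cells, under the control of regulators such as Aire, and part of them take on the look of peripheral cell types such as tuft cells, keratinocytes or secretory cells, the mimetic cells. Counts of reads per gene show the amount of a transcript but not which exons it holds, so the values below describe transcript levels.

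The libraries held 3737884 to 4367126 counts. All 10 markers of this sort were tested, among them Epcam, Krt8, H2-Aa and Aire, and the 95% interval of each of their log2 fold changes lay within a 2-fold change in either direction, as it did for 74.1% of all features. At an unadjusted p under 0.05 Foxn1, Aire and Cd80 were higher and Krt5 lower, 4 of the 10 markers against 5.34% of all features, and Foxn1 passed an adjusted p of 0.05. Markers of thymocytes and blood cells summed to 440 and 477 CPM in the control mice and to 434 and 458 CPM in the tKO mice. CPM are the counts of a gene scaled to the size of its library. Of 26 such markers 20 had enough counts to be tested. The T cell receptor genes Trac and Trbc1, the myeloid marker Itgam and the globin gene Hba-a2 had 0 counts in all 4 libraries. Markers of fibroblasts and vessels summed to 1985 and 1883 CPM against 1987 and 1909 CPM, with Kdr at 4 to 7 counts and Emcn at 1. That sum was carried by Rgs5, at 879 and 797 CPM against 718 and 738 CPM, and of its 17 tested members 5 were higher and 2 lower at an unadjusted p under 0.05, as described below. A few genes that nearly every cell expresses, such as Chd4 with 0 to 3 counts, were almost without reads in this table, so that a low count was not read as lack of expression.

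Among the RBFOX genes the transcript of Rbfox2 fell in the tKO mice and those of its relatives did not pass the test. Rbfox2 had 59.3 and 58.5 CPM in the control mice and 9.74 and 16.5 CPM in the tKO mice. Both tKO libraries lay far below both control libraries, with 35 and 70 counts left over the whole gene. The log2 fold change was -2.14 (SE 0.173, adjusted p = 1.31e-06 in the quasi-likelihood test of edgeR, where all adjusted p-values here are by Benjamini-Hochberg). Rbfox1, the other family member with a clear level in these cells, had 47.3 and 50.9 CPM in the control mice and 54.3 and 46.7 CPM in the tKO mice. The groups overlapped, and the log2 fold change of 0.04 had a 95% interval from -0.24 to 0.31, although its sign turned when control replicate 1 or tKO replicate 1 was left out, to as low as -0.07. Rbfox3, known from neurons, had 14.4 and 18.7 CPM against 17.8 and 25.5 CPM, with a log2 fold change of 0.40 and an interval from -0.06 to 0.86. Of the 9 proteins that assemble with RBFOX on RNA, none had an unadjusted p under 0.05, and the interval of each lay within a 2-fold change.

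Few transcripts responded beyond the spread between mice. With edgeR, 10 of the 18021 features (0.0555%) passed an adjusted p of 0.05, of which 5 rose (0.0277%) and 5 fell (0.0277%), and 5 of these (0.0277%) also exceeded a 2-fold change. Leaving out control replicate 2 lowered the number of 10 to 5, and with the replicate number as a block it was 28. The methods describe sex-matched littermate controls, and in each group replicate 1 is the male and replicate 2 the female. Sex matching thus points to same-numbered mice as pairs, but no source used here ties a number to a litter. The fit without the block is given as the main one. With the block, 24 of the 28 lay outside the Foxn1 neighbourhood described below. At an unadjusted p under 0.05 there were 962 features (5.34%), with 467 higher (2.59%) and 495 lower (2.75%), and with library totals in place of TMM scaling these were 373 higher and 600 lower. By DESeq2 there were 329, with 166 higher and 163 lower, and the counts by DESeq2 below stand against this smaller number. Slc13a2os, Unc119, Slc13a2 and Foxn1 itself lie within 100 kb of the Cre insertion and rose. Their log2 fold changes were 2.45, 2.04, 1.55 and 0.58, and those of the last 3 stood beside 2.16, 1.81 and 0.77 in the Rbfox1 tKO mice, which carry the same Cre allele, so they were set aside here. The call of Slc13a2 was lost without any 1 of the 4 libraries, with an adjusted p of 0.120 to 0.524, and that of Foxn1 with control replicate 1 left out (0.0686), as with control replicate 2 (0.352) and with tKO replicate 2 (0.0994). The 6 remaining genes were Rbfox2, Itga3, Ptk2, Fbxo32 and Acta2, which fell, and Arc, which rose. Of these, Rbfox2 and Arc exceeded a 2-fold change, and without tKO replicate 1 the number past both thresholds outside the Foxn1 neighbourhood was 4 in place of 2.

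The data also bounded how large other changes could have been. Among 11458 Ensembl genes with a mean of at least 10 CPM, leaving out Rbfox2 and the Foxn1 neighbourhood, the median absolute log2 fold change was 0.10 and its 95th percentile was 0.37. For 11280 of them (98.4%) the 95% interval lay within a 2-fold change in either direction. Only 3 of these genes had a point estimate beyond a 2-fold change.

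Itga3 encodes the integrin alpha 3 chain, which pairs with beta 1 to bind laminins of the basement membrane. Itga3 (ENSMUSG00000001507, chr11:95044474-95076801 of GRCm38) had 285 and 279 CPM in the control mice and 171 and 176 CPM in the tKO mice. The 2 groups were far apart relative to the difference within either, and all 4 libraries of the Rbfox1 line, at 243 to 266 CPM, lay near the controls. The log2 fold change was -0.70 (SE 0.0866, 95% interval -0.88 to -0.52, adjusted p = 0.000544 in edgeR), and it passed an adjusted p of 0.05 in all 14 alternative analyses, the highest being 0.0315. In immature mTEC sorted from the same mice Itga3 had 308 and 335 CPM in the controls and 212 and 210.1 CPM in the tKO mice, a log2 fold change of -0.60 (adjusted p = 0.0335 in edgeR). In the Rbfox1 line the log2 fold change was 0.01, and the difference between the 2 lines of -0.71 (95% interval -0.96 to -0.46) had an adjusted p of 0.10 in edgeR.

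Ptk2 encodes focal adhesion kinase, which acts downstream of integrins. It lies on chromosome 15 (ENSMUSG00000022607, chr15:73205102-73423280), 3.66 Mb from Rbfox2. Its level was 52.1 and 46.6 CPM in the control mice and 29.2 and 22.6 CPM in the tKO mice. Both tKO libraries were below both controls, and the log2 fold change was -0.94 (SE 0.154, adjusted p = 0.0187 in edgeR). The call was lost with control replicate 1 left out (0.256), as with control replicate 2 (0.120) and with tKO replicate 2 (0.256). Ptk2 was also lower in the Rbfox1 tKO mice, where Rbfox2 was intact, at 28.3 and 32.4 CPM against 51.8 and 51.3 CPM, a log2 fold change of -0.77 (adjusted p = 0.155). The difference between the lines was -0.17 with a 95% interval from -0.61 to 0.28. In immature mTEC of the Rbfox2 line it fell by 0.99 on the log2 scale (adjusted p = 0.0168), from 78.5 and 75.1 CPM to 36.2 and 41.1 CPM.

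In the list of cell adhesion and matrix genes more members were lower than higher, by small amounts. Of 32 tested members, Itga3 and Ptk2 passed the adjusted threshold, and 5 were lower and 0 higher at an unadjusted p under 0.05, against 2.75% lower and 2.59% higher over all features. The log2 fold change was below 0 in 24 members, with a median of -0.04 against 0.00 over all features. In 11 members both tKO libraries lay below both controls and in 2 above them, as for 17.7% and 17.2% of all features. The number lower was 7 with library totals or with a replicate block and 3 by DESeq2, and in immature mTEC of the same mice 8 members were lower and 2 higher. Itgav, the integrin alpha V chain, had 137 and 136 CPM in the controls and 109.7 and 106 CPM in the tKO mice, a log2 fold change of -0.34 (adjusted p = 0.468 in edgeR). Lama5, a laminin chain that binds the integrin of Itga3, was at the low level of 9.36 and 10.9 CPM against 7.24 and 5.90 CPM (log2 fold change -0.63, adjusted p = 0.868). For 30 of the 32 members the 95% interval lay within a 2-fold change.

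Acta2 and Fbxo32 fell as well, but less firmly. Acta2, smooth muscle actin alpha (ENSMUSG00000035783, chr19:34241090-34255590), had 72.9 and 80.8 CPM in the control mice and 46.2 and 51.0 CPM in the tKO mice, with a log2 fold change of -0.66 (SE 0.119, adjusted p = 0.0428 in edgeR). All 4 Rbfox1-line libraries, with 44.1 to 51.2 CPM, lay beside the tKO mice rather than the controls. The call was lost when any 1 of the 4 libraries was left out (adjusted p = 0.129 to 0.814), in DESeq2 (0.179) and in a fit of all 16 libraries (0.915). Fbxo32, a ubiquitin ligase subunit known from muscle atrophy (ENSMUSG00000022358, chr15:58175879-58214932), had 68.4 and 68.1 CPM against 37.9 and 42.2 CPM, with a log2 fold change of -0.77 (SE 0.129, adjusted p = 0.0229), and its call was likewise lost without any 1 library (0.0946 to 0.365) and with all 16 libraries (0.255). In the Rbfox1 line it had 46.5 to 57.3 CPM, between the 2 groups. Tagln, a calponin-family actin-binding protein of contractile cells, just missed the threshold. It had 41.3 and 38.7 CPM in the controls and 22 and 19.8 CPM in the tKO mice, a log2 fold change of -0.94 (SE 0.177, adjusted p = 0.0646), and the Rbfox1-line libraries were lower than either group, with 9.11 to 17.8 CPM. A list of 24 contractile actin genes and SRF or YAP targets, put together after these values were seen, had 7 members lower and 0 higher at an unadjusted p under 0.05, against 2.75% lower over all features, and a median log2 fold change of -0.01. The number lower was 4 without control replicate 2 and 4 by DESeq2.

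**Figure D1:**
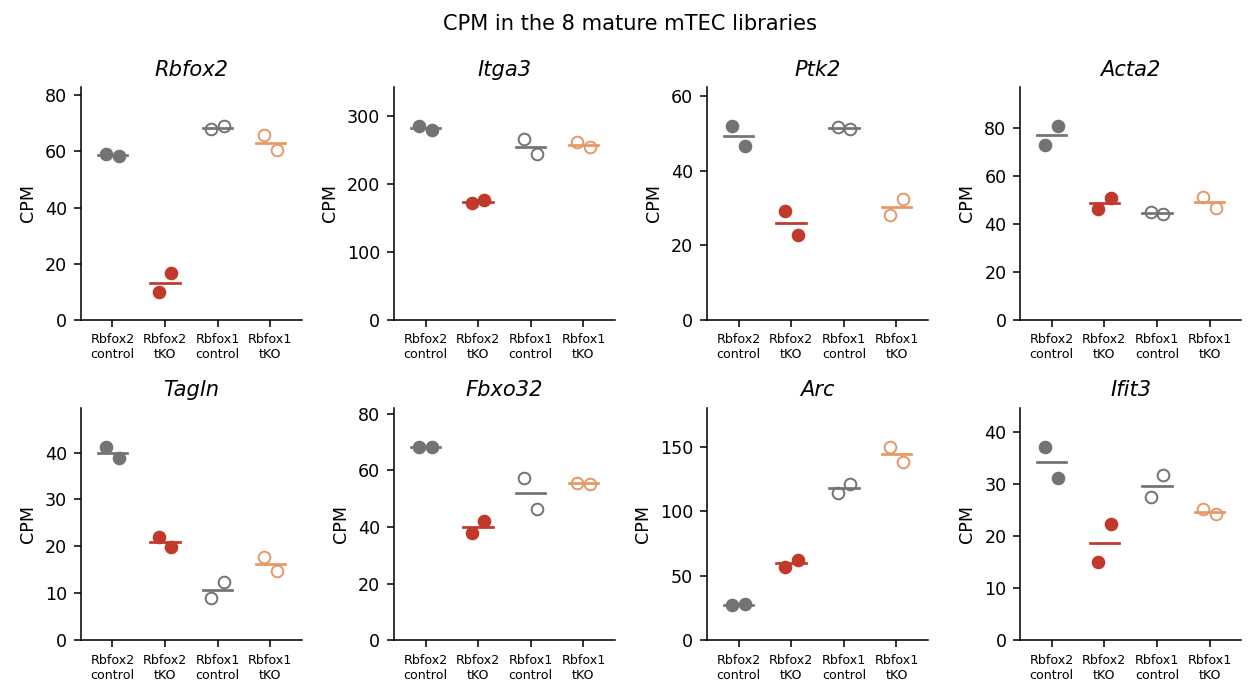
CPM (vertical axes, from 0) of 8 genes in the 8 mature mTEC libraries, with 1 point per mouse and a line at the mean of each group. Filled points are the Rbfox2 line and open points the Rbfox1 line. Itga3 is low only in the 2 Rbfox2 tKO mice, Ptk2 is low in the tKO mice of both lines, and for Acta2 and Tagln the Rbfox2 control mice stand above the Rbfox1 line.

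Arc, an immediate early gene best known from neurons, was the only gene outside the Foxn1 neighbourhood that rose at an adjusted p under 0.05 in this fit. Arc (ENSMUSG00000022602, chr15:74669083-74672570) had 27.1 and 28.4 CPM in the control mice and 56.5 and 62.5 CPM in the tKO mice. The groups were well separated, but the Rbfox1-line libraries were all higher still, with 114 to 150.0 CPM. The log2 fold change was 1.10 (SE 0.127, adjusted p = 0.000202 in edgeR), and it held in all 14 alternatives (highest adjusted p 0.0179). The difference from the Rbfox1 line, where the log2 fold change was 0.29, was 0.81 (95% interval 0.48 to 1.15, adjusted p = 0.191). In immature mTEC Arc had 2.12 and 11.8 CPM against 20.2 and 32.8 CPM, with a log2 fold change of 1.97 (SE 0.465, adjusted p = 0.209).

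Arc lies 2.41 Mb from Rbfox2, and both Arc and Ptk2 are within 5 Mb of it on the same chromosome. The labels and the methods differ on the strain background, and whether tKO and control mice differed in strain alleles along this stretch was not tested. Of 202 other genes tested within 5 Mb of Rbfox2, 20 (9.90%) had an unadjusted p under 0.05, 15 of them lower, against 5.34% of all features. In the same window 11 (5.45%) did so in the Rbfox1 line, where 3.35% of all features did. Within 1 Mb of Rbfox2 there were 3 of 55 (5.45%), and by DESeq2 the 5 Mb window held 11, Rbfox2 included, in place of 21. Most of the lower genes sat together. Between 2.5 and 1.9 Mb from Rbfox2, a stretch chosen after its values were seen, 9 of 23 tested genes were lower and 2 higher, against 1 lower and 2 higher in the Rbfox1 line and 0 lower and 2 higher of 13 in immature mTEC of the same mice. They include the Ly6 family of small surface proteins anchored by lipid.

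Ly6d, which marks keratinocytes and early lymphoid cells, had 389.6 and 368 CPM in the controls and 249 and 302 CPM in the tKO mice (log2 fold change -0.46, adjusted p = 0.160 in edgeR). Ly6a, also called Sca-1, had 117 and 113 CPM against 81.3 and 86.6 CPM (log2 fold change -0.45, adjusted p = 0.473). Them6, a neighbour, had 30.0 and 33.9 CPM against 18.4 and 21.2 CPM (log2 fold change -0.68, adjusted p = 0.459). None of these passed the adjusted threshold, and for all 3 the tKO mice were nearer to the Rbfox1-line libraries than the controls were. On chromosome 15 as a whole, 51 of 677 tested genes (7.53%) had an unadjusted p under 0.05, against 5.34% of all features. That was the highest share of any chromosome, followed by 7.16% on chromosome 18. On chromosome 15, 4 genes passed the adjusted threshold, namely Rbfox2, Arc, Ptk2 and Fbxo32, the last outside the 5 Mb window. When the windows around Rbfox2 and Foxn1 were both set aside, 3 genes remained, namely Itga3, Fbxo32 and Acta2. That number was 1 without control replicate 2 and with all 16 libraries, 5 without tKO replicate 2 and with library totals, 13 with the 4 libraries of the line alone, 20 with a replicate block and 42 without a filter on low counts.

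**Figure D2:**
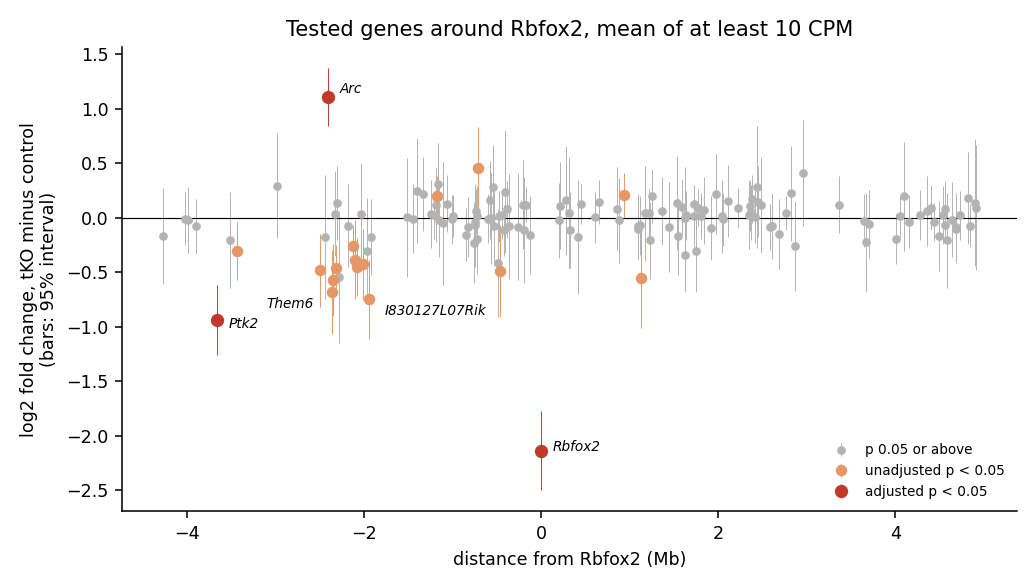
Log2 fold change of Rbfox2 tKO minus control mice (vertical axis, with 95% intervals) against distance from Rbfox2 in Mb (horizontal axis), for tested genes with a mean of at least 10 CPM. The lower genes, in orange, cluster about 2 Mb to the left of Rbfox2, beside Arc, which is higher, while most genes on the right scatter around 0.

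The 24 Ensembl genes leading in either direction, 12 higher and 12 lower, were chosen by their unadjusted p among genes whose groups did not overlap, as 17.2% of features did in the higher and 17.7% in the lower direction. Besides those above, they include Pik3c3, the class III phosphoinositide 3-kinase of autophagy, with 131 and 173 CPM in the controls against 104 and 81.2 CPM in the tKO mice (log2 fold change -0.73, adjusted p = 0.0725). Tmem158 had 222 and 182 CPM against 276 and 298 CPM (log2 fold change 0.51, adjusted p = 0.0978), the leading higher gene after Arc. Jak3, a kinase of cytokine receptors with the common gamma chain, had 36.9 and 47.9 CPM against 59.8 and 67.9 CPM, a log2 fold change of 0.60 (adjusted p = 0.234). Jak3 did pass the test in immature mTEC of the same mice, where it rose by 1.09 on the log2 scale (adjusted p = 0.00157), from 57.3 and 67.4 CPM to 139 and 127 CPM. As a second reference, the mean of the 4 Rbfox1-line libraries lay nearer to the control mice for 16 of the 24 genes and nearer to the tKO mice for 8, namely Arc, Acta2, Tagln, Ly6d, Tgfbi, Cr2, Kcna2 and Rab10os.

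Among genes with a high level in immature mTEC, many more were lower than higher in mature mTEC of the tKO mice. To describe this without the libraries compared, genes were grouped by the log2 ratio of immature to mature CPM in the 2 control mice of the Rbfox1 line, a grouping made after values were seen. Of 181 genes with a mean of at least 10 CPM and a log2 ratio over 2, that is more than 4 times higher in immature mTEC, 41 (22.7%) were lower and 5 higher at an unadjusted p under 0.05, against 2.75% lower and 2.59% higher over all features. Their median log2 fold change was -0.17. In the Rbfox1 line the same genes had 5 lower and 8 higher and a median of -0.02, and in immature mTEC of the Rbfox2 line 18 lower and 8 higher and a median of -0.05. The Rbfox1-line values are not independent of the grouping, since the control libraries of that line also set the ratio. With each of the 4 libraries left out in turn the number lower was 19 to 33, with 19 without control replicate 1 and 25 without tKO replicate 1, and the median ran from -0.22 to -0.14. By DESeq2 the number lower was 19 (10.5%), where 163 of all features were lower. Of 8623 genes at a like level in both populations, with a log2 ratio from -1 to 1, 159 (1.84%) were lower and 207 higher, with a median of 0.01. Of 1263 genes with a log2 ratio under -2, which mature mTEC express more, 39 (3.09%) were lower and 63 higher, with a median of 0.00.

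Summed over the 181 genes, the level was 9715 and 9114 CPM in the control mice and 8286 and 8468 CPM in the tKO mice, so that both tKO libraries were below both controls. Fbxo32, Acta2 and Tagln belonged to this group, as did Tgfbi, a secreted matrix protein, with 70.5 and 74.7 CPM against 46.2 and 52.6 CPM (log2 fold change -0.55, adjusted p = 0.220 in edgeR). Ajuba, a LIM protein of cell junctions, had 18.7 and 17.7 CPM in the controls against 9.46 and 11.1 CPM in the tKO mice (log2 fold change -0.82, adjusted p = 0.455). The actin-binding genes Cald1, Palld and Cnn2 were among its members too. Cells left from the immature gate in a mature sort and a lower level of these transcripts within mature cells cannot be told apart in bulk RNA, as holds for every cell type below.

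**Figure D3:**
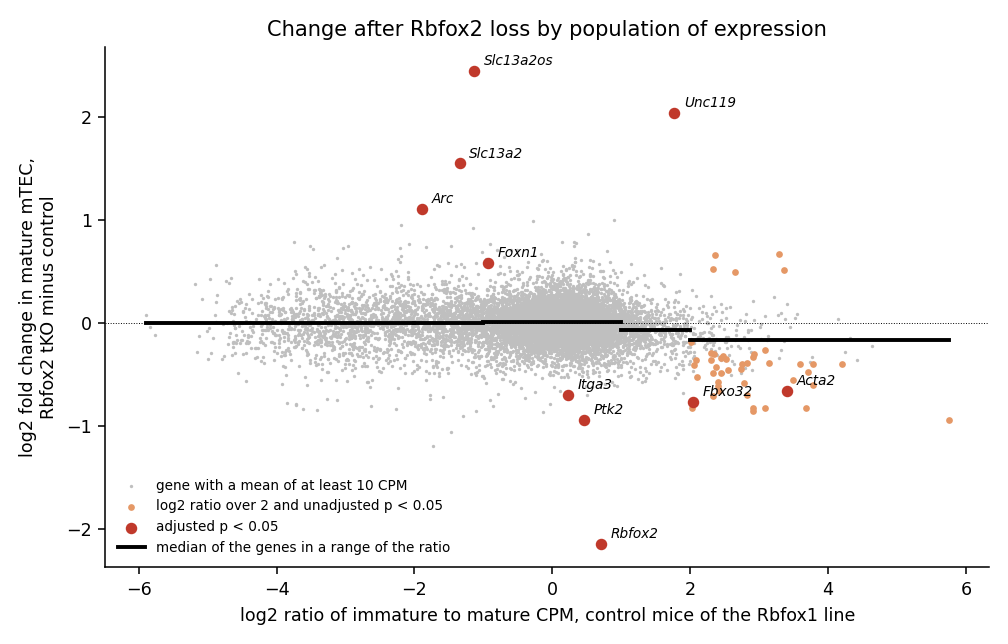
Log2 fold change of Rbfox2 tKO minus control mice in mature mTEC (vertical axis) against the log2 ratio of immature to mature CPM in the control mice of the Rbfox1 line (horizontal axis), for genes with a mean of at least 10 CPM. Black bars are medians within ranges of the ratio, and the bar at a ratio over 2 lies at -0.17 while the bars at a ratio of 1 or less lie between 0.00 and 0.01.

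In the list of genes of immature mTEC and epithelial progenitors, which shares 4 members with the group above, of 17 tested members 6 were lower and 0 higher at an unadjusted p under 0.05, against 2.75% lower over all features, with a median log2 fold change of -0.20 against -0.01 in the Rbfox1 line and 0.01 in immature mTEC. None passed the adjusted threshold, and the number lower was 3 without tKO replicate 1. Krt5, the keratin of basal epithelium, had 739 and 665 CPM in the controls against 513 and 624 CPM in the tKO mice (log2 fold change -0.30, adjusted p = 0.645 in edgeR). Trp63, the transcription factor of basal epithelial progenitors, had 117 and 105 CPM against 86.0 and 92.7 CPM (log2 fold change -0.31, adjusted p = 0.741). Igfbp5, a secreted binding protein of insulin-like growth factors, had 321 and 269 CPM against 240.2 and 186 CPM (log2 fold change -0.47, adjusted p = 0.403). For these 3 genes both tKO libraries lay below both controls.

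No gene in the list of those that define mature mTEC passed the adjusted threshold. Of 26 tested members, 2 were higher and 1 lower at an unadjusted p under 0.05 (11.5%, against 5.34% of all features). The median log2 fold change was 0.01, and the interval of 24 lay within a 2-fold change, as did 74.1% of all. Aire, the regulator of promiscuous expression, had 653 and 706 CPM in the controls and 701 and 928 CPM in the tKO mice, a log2 fold change of 0.26 (adjusted p = 0.896) with overlapping groups. Fezf2, the other such regulator, had 669 and 694 CPM against 606 and 741 CPM (log2 fold change -0.02, 95% interval -0.20 to 0.17). The costimulator Cd80 had 194 and 186 CPM against 216 and 218 CPM (log2 fold change 0.19, adjusted p = 0.915), and the MHC class II chain H2-Aa had 5020 and 5158 CPM against 5155 and 5103 CPM (log2 fold change 0.01). The signs of Fezf2 and H2-Aa depended on single libraries or, for H2-Aa, on the scaling. The chemokine gene Ccl17, which mature mTEC release to attract thymocytes, had 20.2 and 17.0 CPM against 8.91 and 12.5 CPM, a log2 fold change of -0.78 (adjusted p = 0.517).

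Interferon-stimulated genes had the largest share of lower members among the lists. Of 25 tested, 11 were lower and 0 higher at an unadjusted p under 0.05 (44.0%, against 5.34% of all features), and in 17 both tKO libraries lay below both controls, as for 17.7% of all features. The median log2 fold change was -0.27, against -0.06 in the Rbfox1 line and -0.14 in immature mTEC, where 2 were lower. None passed the adjusted threshold. The number lower was 7 without control replicate 1, 7 without tKO replicate 1 and 6 by DESeq2. Summed over the list the level was 2447 and 2329 CPM in the controls and 2079 and 2171 CPM in the tKO mice.

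Ifit3, which encodes an antiviral protein with tetratricopeptide repeats, had 37.2 and 31.1 CPM in the controls and 15 and 22.4 CPM in the tKO mice (log2 fold change -0.85, SE 0.189, adjusted p = 0.220 in edgeR). Iigp1, an immunity-related GTPase, had 106 and 109 CPM against 71.3 and 79.5 CPM (log2 fold change -0.51, adjusted p = 0.160). Rsad2, which encodes viperin, had 43.7 and 44.3 CPM against 35.9 and 20.1 CPM (log2 fold change -0.67, adjusted p = 0.504). In each of these 3 genes the groups did not overlap, and Ifi44 was at 30.7 and 18.5 CPM against 15.3 and 12.7 CPM (log2 fold change -0.82, adjusted p = 0.518). Of the 11 lower members 4 also belonged to the 181 genes above that are high in immature mTEC. Without the members of this list, of the progenitor list and of the lists of fibroblast, vessel and blood cell markers, 172 genes of that group remained. Of these, 33 were lower and 5 higher. Only 4 genes of the group were members of the interferon list, so other genes that respond to interferon can remain among the 172.

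The promoters of the list hold the element that interferon-activated factors read. The core GAAANNGAAA of the interferon-stimulated response element was searched on both strands from 250 bases before to 50 bases after the start sites in the RefSeq promoter table (GRCm38.p6), where overlapping matches were allowed. It was found for 13 of the 20 listed genes in that table, or 65.0%, against 3.99% of all 27025 genes there. The matches of Ifit3, Rsad2 and Ifit1, which were among the lower members, are shown with 7 bases on each side, read on the strand that holds the core, which is in capitals.
Ifit3 (chr19:34583366-34583389, minus strand): agaagagGAAAGTGAAActtacca
Ifit3 (chr19:34583400-34583423, minus strand): gaaagtaGAAACTGAAAcagactt
Rsad2 (chr12:26456556-26456579, plus strand): gttttctGAAAATGAAAgttggac
Ifit1 (chr19:34640778-34640801, minus strand): gagactgGAAAGTGAAActgaagc
Ifit1 (chr19:34640797-34640820, minus strand): gcagtgaGAAACTGAAActgagac
Among lower members 8 of the 10 in that table held a match, and of the 9 other tested members there 4 did. A match is a description of the sequence and does not show that a factor was bound there in these cells. The list was chosen for response to interferon, so its share of matches is no finding about Rbfox2.

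**Figure D4:**
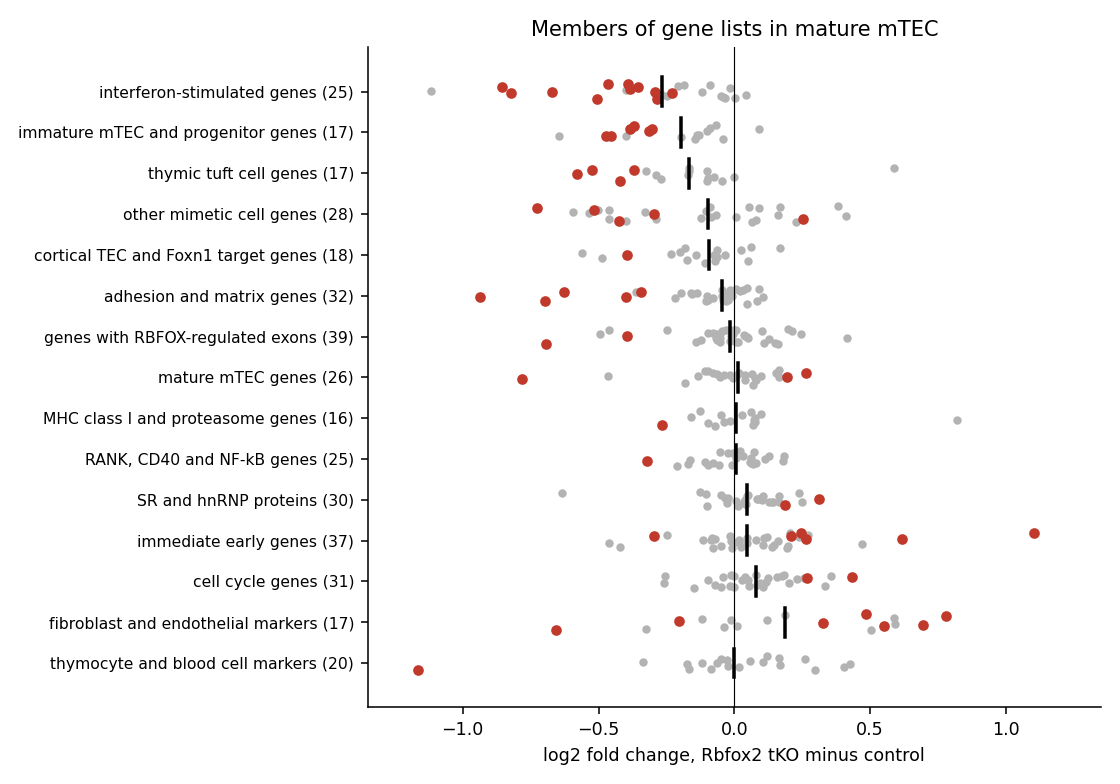
Log2 fold change of Rbfox2 tKO minus control mice in mature mTEC (horizontal axis) for the members of 15 gene lists, with the number tested in brackets. Each point is a gene, red where the unadjusted p is under 0.05, and the black bar is the median of the list, which lies at -0.27 for interferon-stimulated genes and at 0.01 for mature mTEC genes.

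Counts of lower members among the genes of mimetic cells rested on single mice. Of 17 tested thymic tuft cell genes 4 were lower and 0 higher at an unadjusted p under 0.05, against 2.75% lower and 2.59% higher over all features, with a median log2 fold change of -0.17, while the Rbfox1 line had 0 lower and 5 higher and a median of 0.22. The number lower was 1 without control replicate 2, 7 without tKO replicate 1 and 0 without tKO replicate 2, and 1 by DESeq2. Avil, the villin-like protein advillin of tuft cells, had 76.1 and 65.8 CPM in the controls and 59.0 and 51.2 CPM in the tKO mice (log2 fold change -0.37, adjusted p = 0.731). Gnat3, the taste G protein gustducin, had 22.8 and 32.9 CPM against 23.9 and 13.7 CPM. The groups overlapped, with control replicate 2 highest and tKO replicate 2 lowest. Among 28 genes of the other mimetic cells 4 were lower and 1 higher, against the same background, with a median of -0.10. The number lower was 1 without control replicate 1, 2 without tKO replicate 1, 2 by DESeq2 and 1 in a fit of all 16 libraries. Bpifa1, a secretory protein of airway epithelium, had 227 and 186 CPM against 128 and 160.2 CPM (log2 fold change -0.52, adjusted p = 0.403). Insm1, a factor of neuroendocrine cells, was the higher member, with 421 and 377 CPM against 442 and 508 CPM (log2 fold change 0.25, adjusted p = 0.851). Genes of post-Aire keratinocyte-like cells had 3 of 18 members higher and 0 lower, with a median of 0.03. Without control replicate 1 there were 0 higher, without tKO replicate 2 there were 1 higher and 2 lower with a median of -0.11, and 1 was higher by DESeq2 and with all 16 libraries. Filaggrin, Flg, had 30.7 and 34.7 CPM against 44.8 and 48.6 CPM (log2 fold change 0.52, adjusted p = 0.863).

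Some matrix genes of stromal cells were higher at an unadjusted p under 0.05 while the contractile marker of the same list fell. Of 17 tested markers of fibroblasts and vessels 5 were higher and 2 lower, against 2.59% higher and 2.75% lower over all features, with a median log2 fold change of 0.19 against -0.02 in the Rbfox1 line. The number higher was 3 without control replicate 2 and 3 by DESeq2. The collagen genes Col3a1 and Col1a2 had 99.3 and 86.3 CPM against 165 and 136 CPM (log2 fold change 0.70) and 74.9 and 66.3 CPM against 102 and 105 CPM (log2 fold change 0.55), with adjusted p-values of 0.707 and 0.471. Dcn, the matrix proteoglycan decorin, had 114 and 99.5 CPM against 152 and 147 CPM (log2 fold change 0.49, adjusted p = 0.430). Acta2 is the member of this list that fell, and Rgs5, a marker of pericytes, was also lower, at 879 and 797 CPM against 718 and 738 CPM.

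Postn, the matrix protein periostin, had 98.4 and 85.6 CPM against 136 and 146 CPM (log2 fold change 0.62, adjusted p = 0.160). Igfbp7, a secreted protein of vessels and stroma, had 17.5 and 12.2 CPM against 30.1 and 29.7 CPM (log2 fold change 1.01, adjusted p = 0.407). A list of 20 stromal matrix genes, chosen after these values were seen, had 8 higher and 1 lower against the same background, and it summed to 1390 and 1284 CPM in the controls and 1625 and 1623 CPM in the tKO mice. Since the list was chosen after its values were seen, its counts and its sum follow in part from that choice. Whether the level of these genes reflects stromal cells in the sort was not tested.

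Immediate early genes, which also respond to cell dissociation, moved unevenly. Of 37 tested members 5 were higher and 1 lower at an unadjusted p under 0.05, against 2.59% higher and 2.75% lower over all features, with a median log2 fold change of 0.05. In the Rbfox1 line, where 3.35% of all features had an unadjusted p under 0.05 in either direction, 15 were higher and the median was 0.24. The number higher was 2 without control replicate 2, 3 without tKO replicate 2 and 11 without tKO replicate 1. Arc was the only member past the adjusted threshold. Klf2, a Krüppel-like transcription factor, had 81.8 and 92.9 CPM against 113 and 154 CPM (log2 fold change 0.62, adjusted p = 0.160 in edgeR). Egr1 had 468 and 412 CPM against 481 and 561 CPM (log2 fold change 0.24, adjusted p = 0.860). The part of dissociation in the change of Arc was not tested.

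Genes of the splicing machinery were read against the 2.59% higher and 2.75% lower of all features at an unadjusted p under 0.05. Among 34 splicing regulators of restricted tissue expression 1 was lower and 0 higher (2.94%), namely Ptbp2, the neuronal relative of the polypyrimidine tract-binding protein. Ptbp2 had 20.4 and 17.2 CPM in the controls and 12 and 11.3 CPM in the tKO mice (log2 fold change -0.69, SE 0.202, adjusted p = 0.564 in edgeR). It is also a gene with an exon that RBFOX regulates, and both tKO libraries lay below both controls. Of 30 SR and hnRNP proteins 2 were higher and 0 lower (6.67%, against 5.34% of all features in either direction). These were Tra2a (log2 fold change 0.31) and Hnrnpab (0.18), with adjusted p-values of 0.859 and 0.863 in edgeR. Of 14 factors of nonsense-mediated decay, the pathway that removes transcripts with premature stop codons, none had an unadjusted p under 0.05 and each interval lay within a 2-fold change.

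Genes known for an exon regulated by RBFOX showed little change in their total transcript. Of 39 tested members 2 were lower and 0 higher (5.13%, against 5.34% of all features), the median log2 fold change was -0.02, and for 35 the interval lay within a 2-fold change. Besides Ptbp2 the lower one was Fgfr2, a fibroblast growth factor receptor with a pair of exons used in turn in epithelium and mesenchyme, at 22.6 and 24.3 CPM against 19.2 and 16.5 CPM (log2 fold change -0.40, adjusted p = 0.915). Fn1, fibronectin, had 269.9 and 284 CPM against 298 and 259 CPM, and Insr, the insulin receptor, had 176 and 160.0 CPM against 195 and 146 CPM. In both the groups overlapped and the log2 fold change was 0.01, of a sign that changed with the scaling. Myom2, a sarcomere protein, was at 11 and 10.4 CPM against 5.29 and 9.67 CPM (log2 fold change -0.49, 95% interval -1.16 to 0.17).

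The remaining lists were set against the background of 2.59% higher and 2.75% lower, and the small number of their members leaves their shares imprecise. Of 25 genes of the RANK, CD40 and NF-kB pathways, which drive mTEC maturation, 1 was lower, the NF-kB subunit Rela with 92.8 and 92.2 CPM against 64.9 and 82.6 CPM (log2 fold change -0.32, adjusted p = 0.859), and all 25 intervals lay within a 2-fold change. Of 16 genes of MHC class I and the proteasome 1 was lower, the peptide transporter Tap1 (log2 fold change -0.26). Of 18 genes of cortical epithelium and Foxn1 targets 1 was lower and 0 higher, although Foxn1 itself rose. Of 31 cell cycle genes 2 were higher and 0 lower (6.45%), Cenpe (0.43) and Bub1b (0.27), both of the mitotic checkpoint and kinetochore. Of 24 stress genes 1 was higher, the chaperone Hspa1a (0.44). Among 21 genes of epithelial-mesenchymal transition, a process in which RBFOX2 is a known splicing regulator, Vim and Tgfbr2 were higher and Mmp9 lower. That share of 14.3% was above the 5.34% of all features in either direction, and none passed the adjusted threshold. Of 5 sex-linked genes none had an unadjusted p under 0.05.

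Self-antigens of other tissues were read against the 5.34% of all features at an unadjusted p under 0.05. Of 34 striated muscle antigens 2 were higher and 1 lower (8.82%). Ttn, which encodes titin, had 55.7 and 50.9 CPM in the controls and 139 and 65.6 CPM in the tKO mice, so that its log2 fold change of 0.92 (adjusted p = 0.468 in edgeR) rested on tKO replicate 1. Of 37 neuronal antigens 1 was higher and 2 lower (8.11%), and of 38 endocrine and other classic self-antigens 1 was higher and 1 lower (5.26%), Csn2 (log2 fold change 0.17) and Nts (-0.28). After thinning each library to 3737884 counts, 30844 and 31324 features had at least 1 count in the control mice and 31314 and 31080 in the tKO mice. Of protein-coding genes 18159 and 18243 were detected in the controls and 18181 and 18191 in the tKO mice. In both counts the groups overlapped, and 2 mice against 2 allow no exact permutation p below 0.333.

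The Rbfox2 effect in mature mTEC was next set against 2 other comparisons. In the Rbfox1 line 4 features (0.0222%) had an adjusted p under 0.05 and 604 (3.35%) an unadjusted p under 0.05. The difference between the 2 effects passed an adjusted p of 0.05 for 1 gene of 18021 (0.00555%), Rbfox2 itself, at -2.02 on the log2 scale (95% interval -2.48 to -1.56, adjusted p = 0.000351 in edgeR). Without control replicate 1 or without tKO replicate 1 there were 2 such genes. Rbfox1, the gene deleted in the other line, did not pass this test in the main fit. Across 11458 genes with a mean of at least 10 CPM the 2 sets of log2 fold changes had a Pearson r of -0.01 and a Spearman rho of -0.01. The 2 sets share no mice, and the values describe genes that are not independent of each other.

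In immature mTEC of the same mice 12 of 13060 features (0.0919%) had an adjusted p under 0.05 and 816 (6.25%) an unadjusted p under 0.05. Over 10592 genes the log2 fold changes of the 2 populations had r = 0.06 and rho = 0.07. Of the 24 leading genes of mature mTEC, Rbfox2 among them, 22 were tested in immature mTEC. There 20 had the same sign, 10 of them at an unadjusted p under 0.05 in edgeR. Both populations came from the same mice, so this is not an independent comparison. Without a term for the mouse, 0 of 17442 features (0.0%) differed in effect between the populations in edgeR, with 908 at an unadjusted p under 0.05, and with each mouse as a block, since both populations came from the same mice, 64 did (0.367%). In 57 of the 64 the effect was lower in mature than in immature mTEC. The median log2 fold change of the 64 was -0.17 in mature and 0.84 in immature mTEC. These genes were picked for a difference between the populations, so the contrast of the medians follows in part from the selection. Reg3g, an antibacterial lectin of the gut, had 3408 and 3491 counts in mature controls and 2008 and 2912 in mature tKO libraries, against 278 and 383 and then 445 and 594 counts in immature mTEC, a difference in effect of -1.38 on the log2 scale (adjusted p = 3.69e-14 with the block), and its change within immature mTEC had an adjusted p of 0.457. The gel-forming mucin Muc5ac had 489 and 401 counts against 379 and 451 in mature mTEC (log2 fold change -0.05), and 6 and 8 counts against 26 and 41 in immature mTEC, a log2 fold change of 2.54 (adjusted p = 0.0784). In these examples the mature level was close to or below the controls and the immature level above them. Tagln was among the 64 as well, with a log2 fold change of -0.94 in mature and -0.09 in immature mTEC, and there its level was 1056 and 1136 CPM against 901 and 1152 CPM.

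**Figure D5:**
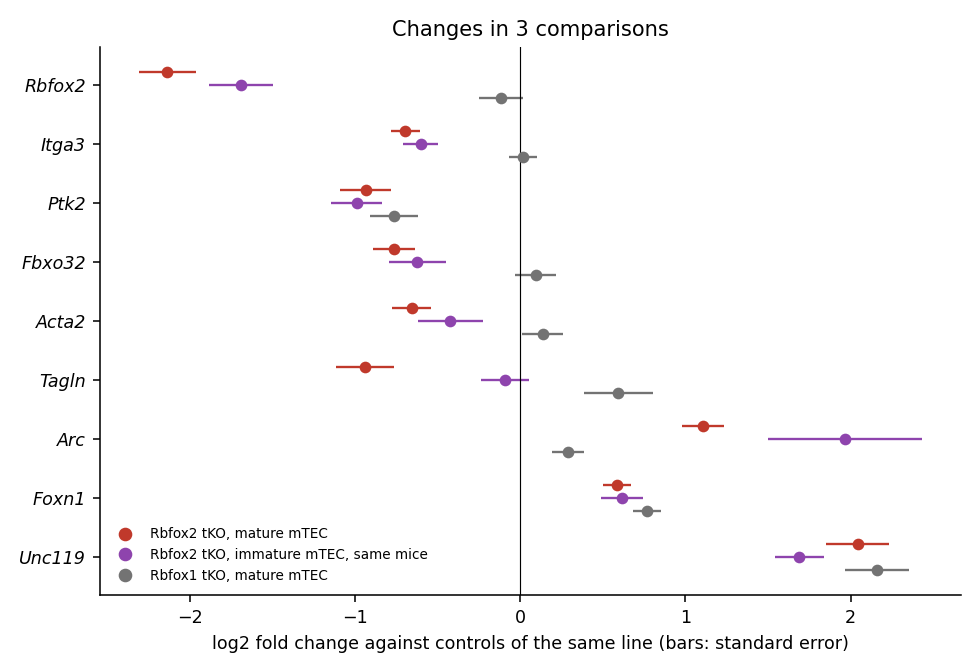
Log2 fold changes with standard errors (horizontal axis) of 9 genes in 3 comparisons, each of tKO mice against control mice of the same line. Rbfox2, Itga3, Fbxo32 and Acta2 are lower in mature mTEC of the Rbfox2 line and near 0 in the Rbfox1 line, while Ptk2, Foxn1 and Unc119 have the same sign in all 3.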

How the data were processed

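RNA was sequenced from sorted mature and immature mTEC. The authors deposited counts of reads per gene, without normalization, in 1 table of 89407 features for all 16 libraries, after removing duplicate and unmapped reads and down-sampling. Alignment and counting used mm10 as the build, with featureCounts 1.6.0, HISAT2 2.1.0 and Picard 2.10.9 listed in the submitters' processing notes. Names and positions were taken from GENCODE M21 (GRCm38), which held 53360 of 53464 Ensembl identifiers. Assembled loci made up 0.897% to 0.968% of the counts of the 4 libraries.

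Tests used edgeR 4.0.16 (R 4.3.3, TMM, filterByExpr at a minimum count of 10, quasi-likelihood test). For mature mTEC, 1 fit held the 8 mature libraries of both lines, with a mean for each of 4 conditions. Its p-values were adjusted by Benjamini-Hochberg over all 18021 features. Immature mTEC had a separate fit of their 8 libraries, adjusted over 13060 features. Differences between the populations came from fits of all 16 libraries, without or with a term for each mouse, adjusted over 17442 features. The test in mature mTEC was tried on simulated data. Tables were made in Python 3.11.15. Depth limits the precision, and intervals come from the fit. The 2 libraries of a group differed by more than counting noise (chi-square per degree of freedom 1.78 and 2.29).

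The comparison and the 27 gene lists were chosen with earlier results of these data known. The named genes were the RBFOX genes, every gene with an adjusted p under 0.05, the 12 leading genes in each direction with at least 10 CPM and groups that did not overlap, up to 4 members of each list by p, a few regulators and antigens, and genes that differed in an interaction. Ajuba, Cald1, Palld, Cnn2, Them6, Rgs5 and 2 further lists were chosen after their values were seen. Alternatives were DESeq2 1.42.0, other scaling and filters, other sets of libraries, sex or replicate number as a term, and each library left out in turn. Listed genes under the filter were not tested, and the list symbols Cyr61, Ctgf, Ia2 and Spt1 were not matched. Splicing was not analysed here.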

Additional observations from a re-analysis of the deposited data

Results flagged for a closer look

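Rbfox2 itself was the gene whose change differed between the lines, with a difference in effect of -2.02 on the log2 scale between mature mTEC of Rbfox2 tKO and Rbfox1 tKO mice, in a test of the difference. The gene was deleted in 1 line and intact in the other. Rbfox1, the gene deleted in the other line, did not pass an adjusted p of 0.05 in the same test.

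A further 64 genes stood out because their Rbfox2 effect differed between mature and immature mTEC of the same mice when each mouse was a block, against 0 without the block. Of these, 54 of 60 tested in immature mTEC had a log2 fold change above 0 there, among them Reg3g and Clca1, with 0.94 and 1.65 in immature and -0.45 and -0.31 in mature mTEC. This follows in part from the selection of genes whose effects differ between the populations. Some rest on a single mouse, such as Sst with 4 and 0 counts in immature controls against 41 and 4 in immature tKO libraries.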

How the results depend on the processing

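The 5 genes past both thresholds were 8 without a filter on low counts, 10 without a fold threshold and 4 to 6 with a library left out. The 10 with an adjusted p under 0.05 were 51 without a filter, 21 with the 4 libraries of the line alone, 5 to 10 with a library left out, and 3 with the Foxn1 and Rbfox2 neighbourhoods set aside. With a replicate block they were 28. Same-numbered tKO and control libraries had deviations correlated by 0.0628. The numbers were not taken as pairs in the main fit, although same-numbered mice share their sex and the controls were sex-matched littermates by the methods. Outside the Foxn1 neighbourhood the 2 genes became 5 without a filter and 2 to 4 with a library left out. The 1 gene that differed between lines became 2 with library totals, 15 without a filter, 6 with a replicate block and 1 to 2 with a library left out. The 0 genes that differed between populations became 64 with each mouse as a replicate block. By DESeq2 the 962 features at an unadjusted p under 0.05 were 329, with 166 higher and 163 lower. By the same method the 21 genes around Rbfox2 were 11, and the lower members were 6 for interferon-stimulated, 3 for adhesion, 1 for tuft cell and 2 for mimetic cell genes, with 3 higher fibroblast and vessel markers. With all 16 libraries 1 mimetic cell gene was lower. With a library left out, lower members were 7 to 10 for interferon-stimulated, 3 to 7 for progenitor, 0 to 7 for tuft cell and 1 to 4 for mimetic cell genes, and higher members 3 to 7 for fibroblast and vessel markers and 2 to 11 for immediate early genes. The cause of these moves was not tested.

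Of 1201 values of 86 named genes under 14 settings, 1109 kept direction and side of the threshold, 22 were no longer past it, 53 came to pass it and 17 changed sign, all of them of log2 fold changes that were small in the report or, for the Y-linked gene Kdm5d, rested on 1 male in each group. With library totals H2-Aa was -0.0093, Insr -0.0067 and Fn1 -0.0147, and without a filter they were -0.0101, -0.0094 and -0.0161. Leaving out a library gave -0.0692 to 0.143 for Rbfox1, -0.0063 to 0.0287 for H2-Aa, -0.17 to 0.12 for Fezf2, -0.21 to 0.21 for Insr, -5.30 to 5.32 for Kdm5d and -0.10 to 0.10 for Fn1. Small changes of genes with few counts were not detectable with 2 mice a group at this depth.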
